A study of Homo sapiens with 6 samples.

Results

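The genes described here are 54 amino acid transport, synthesis and tRNA synthetase genes, taken by name from a fixed list. The list holds 24 plasma membrane or lysosomal transporters, 18 enzymes of amino acid synthesis and 12 tRNA synthetases. On the arrays, 127 of 54613 probe sets name at least 1 of these genes, and 53 of the 54 genes have such a probe set. GPT2, a mitochondrial alanine transaminase, was not analysed here. MARS1, the methionyl-tRNA synthetase, is read only by probe sets that also name the microRNA MIR6758 inside it. This left 52 genes with a probe set of their own, of 19775 genes measured in all.

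RNA came from 3 arrays labelled NF1-C2S transfected and 3 arrays labelled wild type, all of MDA-MB-436, a human tumour line of the breast, established long ago and lacking hormone receptors. Per the series record the transfected cells stably carried an expression plasmid with NF1-C2, made from the NFIC gene of the nuclear factor I transcription factors, and 1 label writes it NF-C2. Both groups grew in RPMI-1640 with 10% serum and 5 µg/ml insulin. No empty-plasmid cells are among the samples, and the sources used here do not say whether the transfected cells were a pool or 1 clone. Values are log2 expression from RMA, and all changes are transfected minus wild type. A call is an adjusted p under 0.05 in limma over all genes. NFIC itself read 8.25 ± 0.04 in transfected and 8.47 ± 0.06 in wild type arrays (SD, n = 3 each) on the brightest of its probe sets, with groups that did not overlap. By the rule above NFIC was called lower (log2 change -0.22, limma adjusted p = 0.047 over genes), against the direction its label would give. Its other probe sets gave -0.51, -0.11 and 0.22. In the limma fit over all probe sets none was called, the brightest included (adjusted p = 0.082), and the one at -0.51 had adjusted p = 0.0536. Whether these probe sets can read the plasmid's insert is not known. The gene is therefore no check of the labels, and directions are those of the arrays as labelled. Among markers of the line, the mesenchymal filament VIM averaged 13.28 over all arrays. Of the hormone receptors, the progesterone receptor PGR averaged 3.18 and the estrogen receptor ESR1 5.87. Of the 11 markers chosen for the line, 9 lay above the median of all values, ESR1 among them, so this count is no check of identity. In the same 11, 3 fell, VIM by 0.52, KRT18 by 0.93 and CAV1 by 1.73. The summed level of the 11 ran from 87.36 to 88.38 in transfected and from 91.58 to 92.36 in wild type arrays, and its part in the results that follow was not tested. Measured markers of leukocytes, endothelium, fibroblasts and erythroid cells changed by between -0.16 and 0.23. These are whole-culture measurements, in which fewer cells of a type and less RNA per cell cannot be told apart.

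Cells obtain amino acids through membrane carriers, build the non-essential ones from glycolytic and citric acid cycle intermediates, and load them onto tRNAs with synthetases before translation. When amino acids run short, uncharged tRNA activates the kinase GCN2, eIF2alpha is phosphorylated, and the transcription factor ATF4 is translated. ATF4 binds composite C/EBP-ATF elements near many genes of this kind, among them ASNS. In breast tumours several of these genes, such as PHGDH, SLC7A5 and ASS1, are known for large differences between tumours.

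Of the 52 genes, 11 were higher and 8 lower in the transfected arrays, and 33 did not pass. The called share, 36.5%, lies close to that over all genes tested, 31.9%, of which 15% were higher and 16.9% lower. Among genes at or above 4.82, the median of all values, 40.4% of the 47 members and 45.7% of all such genes were called. Over all 52 members the median change was 0.04, against 0 for all genes tested. The median size of change, whatever its direction, was 0.21 for the members and 0.16 for all genes. The ends of the range belonged to ASS1, which fell by 2.51, and GLUL, which rose by 1.79. In all 19 called genes the groups did not overlap, and the same held for 8 of the 33 that did not pass; over all genes 43% had groups that did not overlap.

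**Figure D1:**
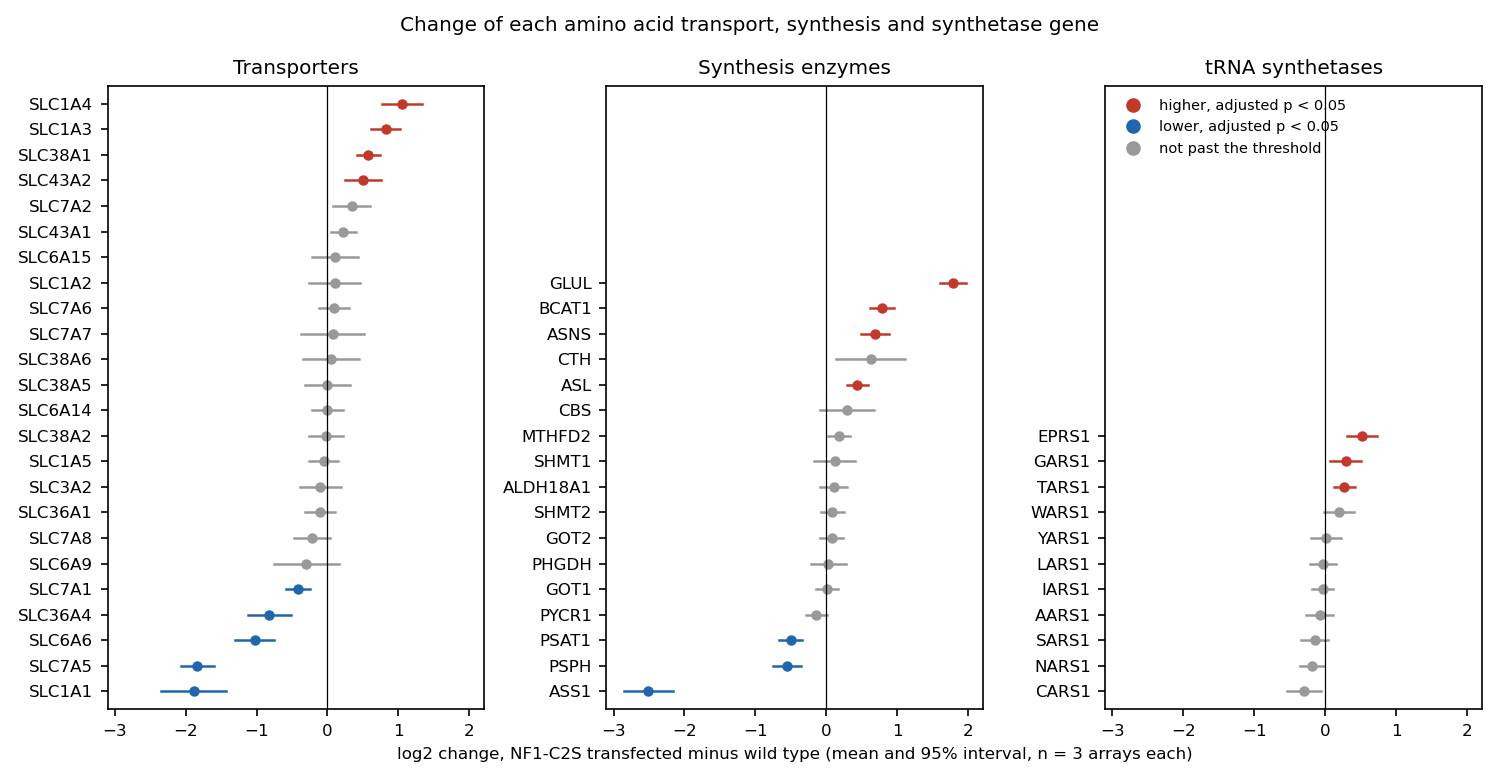
Log2 change (NF1-C2S transfected minus wild type, horizontal axis) of the 52 measured genes with 95% intervals from limma, n = 3 arrays each, in 3 panels by role. Red points are the 11 genes called higher and blue points the 8 called lower; the transporters and the enzymes spread both ways, while the synthetases stay between -0.30 and 0.52.

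The DNA around the start sites of these genes was searched for the core of the C/EBP-ATF element, TGATGNAA on either strand (TTNCATCA on the other), because this element is known from the amino acid response. RefSeq start-site windows of GRCh38.p14, which run from 250 bases before to 50 bases after a start, were held for 44 of the 54 genes, in 76 windows. A match was found for 16 of the 44 genes (36.4%) and in 21.1% of their windows, against 4.46% of all 27305 genes and 3.62% of all 35116 windows in the same table. By role, 7 of 10 synthetases had a match, 6 of 20 transporters and 3 of 14 enzymes. The upstream part of the ASNS window is given in full because ASNS is a textbook target of ATF4, with the match in capitals. It lies at chr7:97872409-97872658 on the minus strand of GRCh38.p14, is written on the gene's strand, and its match begins at position -68, counted from the start site.

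ASNS: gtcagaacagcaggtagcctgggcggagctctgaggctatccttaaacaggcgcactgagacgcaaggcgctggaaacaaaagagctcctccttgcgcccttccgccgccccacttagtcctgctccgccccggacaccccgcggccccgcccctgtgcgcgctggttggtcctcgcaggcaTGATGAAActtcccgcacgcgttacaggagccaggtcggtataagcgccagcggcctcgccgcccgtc

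The next 30-base stretches, also on the gene's strand with the match in capitals, are those of the other 6 genes with a match that were called higher. They allow the elements to be compared: SLC1A3, BCAT1 and SLC38A1 carry the core in the orientation of ASNS, and SLC1A4, GARS1 and TARS1 carry it reversed.
SLC1A3, chr5:36596357-36596386, plus strand: caggaaatgacTGATGCAAagcagggttaa
BCAT1, chr12:24949131-24949160, minus strand: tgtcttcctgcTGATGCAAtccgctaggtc
SLC38A1, chr12:46266502-46266531, minus strand: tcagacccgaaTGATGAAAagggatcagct
SLC1A4, chr2:64989381-64989410, plus strand: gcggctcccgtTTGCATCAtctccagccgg
GARS1, chr7:30594834-30594863, plus strand: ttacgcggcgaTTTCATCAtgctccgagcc
TARS1, chr5:33440956-33440985, plus strand: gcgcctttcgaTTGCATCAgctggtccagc

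Genes with a match of the same kind that were not called higher included SLC7A1, which fell, and the synthetases CARS1, IARS1 and AARS1, which did not pass. Their stretches are shown to set beside those above.
SLC7A1, chr13:29595663-29595692, minus strand: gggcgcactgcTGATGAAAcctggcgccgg
CARS1, chr11:3057407-3057436, minus strand: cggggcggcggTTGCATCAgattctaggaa
IARS1, chr9:92293692-92293721, minus strand: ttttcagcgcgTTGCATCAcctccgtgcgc
AARS1, chr16:70289675-70289704, minus strand: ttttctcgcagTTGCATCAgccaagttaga

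Of the 15 measured members with a match, 7 were higher, 1 lower and 7 not called; of the 28 without a match, 4 were higher, 5 lower and 19 not called. Their median changes were 0.01 and 0.06. Over all genes tested, 78 of 556 with a match were higher and 77 lower, against 2377 and 2613 of 14828 without one. A match is a run of letters, not a bound site, and binding was not measured here.

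**Figure D2:**
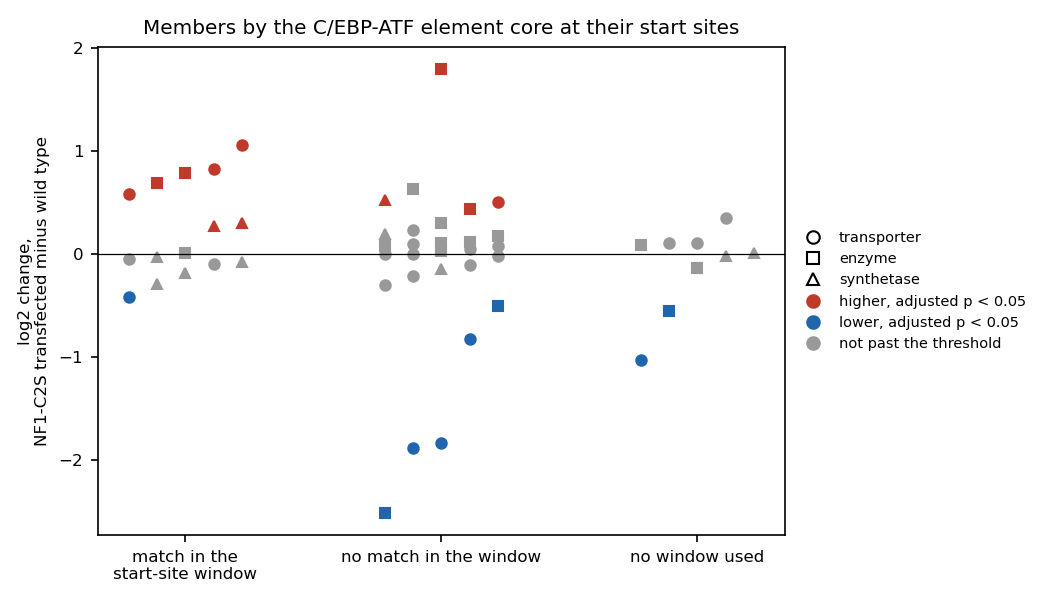
Log2 change (NF1-C2S transfected minus wild type, vertical axis) of the 52 measured genes by whether the core of the C/EBP-ATF element was found in a RefSeq start-site window, with marker shape for role and colour for the call. The 5 largest falls, SLC6A6 among them, lie in the columns without a match or without a window, and so does the largest rise, that of GLUL.

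Among the glutamate and neutral amino acid carriers of the SLC1 family, 2 of 5 rose and 1 fell. That is 60%, beside 31.9% of all genes and 45.7% of genes at or above the median of all values. SLC1A1, a glutamate and cysteine carrier, read 4.89, 5.36 and 5.66 in the transfected arrays and 6.96, 7.27 and 7.33 in the wild type arrays. Every transfected array was below every wild type array, and the fall was 1.88 (SE 0.20, limma adjusted p = 0.000287, 3.69-fold). Its other probe set fell by 0.92 (adjusted p = 0.00443 over probe sets). Of the 20 nearest measured genes on its chromosome, 7 fell and 0 rose, beside 16.9% and 15% of all genes. Their median was -0.20, a shift whose part in the result was not tested.

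SLC1A3, the glial-type glutamate transporter, moved the other way. It read 7.85, 7.79 and 7.86 in transfected and 6.88, 6.99 and 7.17 in wild type arrays, a rise of 0.82 (SE 0.09, limma adjusted p = 0.00035). Its second probe set, near background, gave 0.21 and did not pass, and the mean of both gave 0.52 (adjusted p = 0.00854). SLC1A4, a carrier of serine, alanine and cysteine, read 7.24, 7.41 and 7.51 in transfected and 6.35, 6.13 and 6.52 in wild type arrays. Both sets of arrays stood clearly apart, with a 2.08-fold rise of SLC1A4 (log2 change 1.05, SE 0.12, limma adjusted p = 0.000421). Further SLC1A4 probe sets gave 1.58 and 1.17, both called, and 0.47 and 0.16, which did not pass. The smallest of these, near background, is the only one without the endings _x_at and _s_at, by which Affymetrix marks probes shared between transcripts. SLC1A5, the glutamine carrier of proliferating cells, gave -0.05 (95% interval -0.26 to 0.15), and SLC1A2, the main glutamate transporter of astrocytes, 0.10 (-0.25 to 0.45). Neither passed the test.

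SLC7A5, which takes up leucine and other large neutral amino acids, had the largest fall among the heteromeric and cationic carriers. It read 9.64, 9.73 and 9.48 in transfected and 11.47, 11.58 and 11.30 in wild type arrays. The highest transfected array was far below the lowest wild type array, and the fall was 3.56-fold (log2 change -1.83, SE 0.10, limma adjusted p = 1.96e-05). This gene has 1 probe set, which ends in _s_at. SLC3A2, the heavy chain that SLC7A5 needs to reach the membrane, gave -0.10 (95% interval -0.39 to 0.19, adjusted p = 0.636), with overlapping groups. SLC7A1, the housekeeping carrier of arginine and lysine, read 10.74, 10.83 and 10.80 in transfected and 11.16, 11.17 and 11.29 in wild type arrays, a fall of 0.42 (adjusted p = 0.00321). Of its other probe sets those at -0.68 and -0.41 were called and those at -0.35 and -0.08 were not.

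The other light chains and cationic carriers did not pass. SLC7A2, an inducible arginine carrier, gave 0.34 (adjusted p = 0.0505) with groups that did not overlap. SLC7A8, a neutral amino acid exchanger, gave -0.22, SLC7A6, an exchanger of arginine and glutamine, 0.09, and SLC7A7, its relative of gut and kidney, 0.07 at a level near 4.64, below the median of all values.

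In the sodium-coupled, proton-coupled and facilitative families, 2 of 12 genes rose and 2 fell, which is 33.3%, near the 31.9% of all genes. SLC6A6, the taurine transporter, read 8.88, 8.98 and 9.10 in transfected and 9.85, 9.95 and 10.24 in wild type arrays. The groups stood about 1 log2 unit apart (log2 change -1.03, SE 0.12, limma adjusted p = 0.000423). Its dimmer probe sets changed by -1.73, -1.71 and -1.61, while 1 more gave 0.21 and did not pass. Of the 20 nearest measured genes, 10 fell and 0 rose (median -0.34), and their part in the fall of SLC6A6 was not tested. SLC36A4, a carrier of proline and tryptophan, read 7.03, 7.36 and 7.55 in transfected and 8.10, 8.19 and 8.12 in wild type arrays. The transfected arrays were lower and more spread, and the fall was 0.82 (SE 0.13, adjusted p = 0.00215). Its other probe set, near background, gave -0.22 and did not pass, and the mean of both gave -0.52 (adjusted p = 0.0134).

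SLC38A1, a sodium-coupled glutamine carrier, rose. It read 10.65, 10.62 and 10.72 in transfected and 10.03, 10.10 and 10.13 in wild type arrays (log2 change 0.58, SE 0.07, limma adjusted p = 0.000547), and 2 further probe sets rose by 0.38 and 0.73, while 1 near background gave 0.12 and did not pass. SLC43A2, a facilitative carrier of large neutral amino acids, read 6.73, 6.55 and 6.47 in transfected and 6.26, 5.97 and 6.01 in wild type arrays, a rise of 0.50 (adjusted p = 0.00907) that its second probe set matched at 0.54. Its relative SLC43A1 gave 0.23 (adjusted p = 0.0591). SLC38A2, the glutamine and alanine carrier known to be induced by amino acid starvation, gave -0.02 (95% interval -0.27 to 0.22) at a level near 11. SLC36A1, a proton-coupled lysosomal carrier, gave -0.11, SLC38A6, a member of the glutamine carrier family, 0.05, and SLC6A9, a glycine transporter, -0.30, and none of these passed. SLC6A14, a broad carrier of neutral and basic amino acids, SLC6A15, a neutral amino acid carrier of neurons, and SLC38A5, a glutamine carrier, lay at 3.09, 3.59 and 4.5, under the median of all values, and gave 0.00, 0.11 and 0.00.

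**Figure D3:**
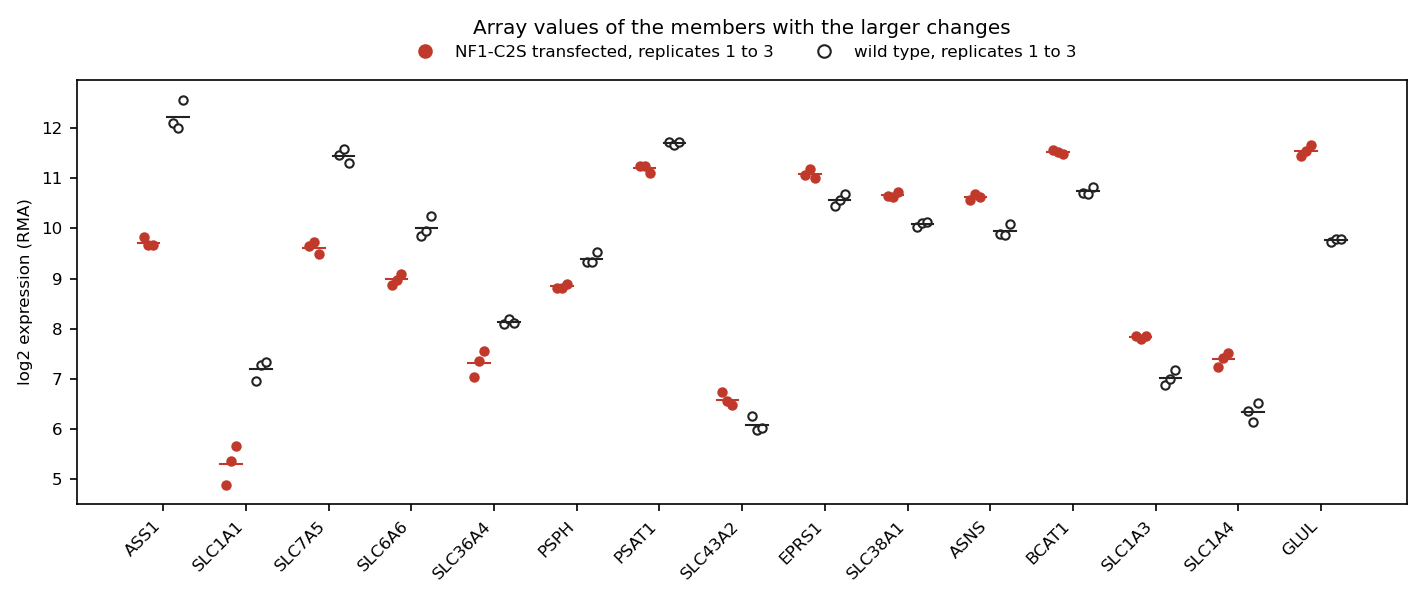
Log2 expression (RMA, vertical axis) in each array for the 15 genes called with a change of at least 0.5, ordered by change; filled red points are NF1-C2S transfected replicates, open points wild type replicates and bars group means. No gene shown has overlapping groups, and ASS1, SLC1A1, SLC7A5 and GLUL show the widest gaps.

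Among the synthesis enzymes 4 of 17 rose and 3 fell. That is 41.2%, beside 31.9% of all genes and 45.7% of genes at or above the median of all values. GLUL, glutamine synthetase, which joins ammonia to glutamate, read 11.45, 11.55 and 11.66 in transfected and 9.72, 9.78 and 9.79 in wild type arrays. The rise was 3.46-fold (log2 change 1.79, SE 0.08, limma adjusted p = 7.55e-06), with tight groups far apart. Its other probe sets rose by 1.94, 1.88 and 0.44. The one at 0.44, near background, is the only one without the endings _x_at and _s_at. The 20 nearest measured genes had a median of -0.01.

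ASNS, asparagine synthetase, read 10.56, 10.69 and 10.63 in transfected and 9.88, 9.87 and 10.08 in wild type arrays. Its rise was 0.68 (SE 0.08, limma adjusted p = 0.000636). Of the 20 nearest measured genes, 10 also rose and 3 fell (median 0.29), and their part in the rise of ASNS was not tested. The only other ASNS probe set lay near background and gave 0.05, and the mean of both gave 0.37 (adjusted p = 0.00363). BCAT1, the cytosolic transaminase of branched-chain amino acids, read 11.57, 11.52 and 11.48 in transfected and 10.71, 10.69 and 10.82 in wild type arrays, a rise of 0.78 (SE 0.07, adjusted p = 0.000146). All 4 BCAT1 probe sets rose, by 0.41 to 0.81. GOT1 and GOT2, the cytosolic and mitochondrial aspartate transaminases, gave 0.01 (95% interval -0.15 to 0.16) and 0.08 (-0.09 to 0.24). The proline enzymes ALDH18A1 and PYCR1 gave 0.11 and -0.14, and neither passed.

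Of the 6 enzymes of serine synthesis and 1-carbon metabolism 2 fell and 0 rose. That is 33.3%, near the 31.9% of all genes and under the 45.7% of genes at or above the median of all values. Both falls were among the 3 enzymes of the serine pathway. PHGDH, the first enzyme of the pathway, gave 0.03 (95% interval -0.22 to 0.28). PSAT1, the transaminase that follows, read 11.24, 11.25 and 11.11 in transfected and 11.72, 11.67 and 11.72 in wild type arrays. PSPH, the final phosphatase, read 8.82, 8.81 and 8.90 in transfected and 9.33, 9.32 and 9.54 in wild type arrays. Both groups of arrays were tight and apart for either gene, with falls of 0.50 for PSAT1 (limma adjusted p = 0.00124) and 0.55 for PSPH (adjusted p = 0.00175). The second PSAT1 probe set fell by 0.57, while those of PSPH gave -0.27 (adjusted p = 0.0805) and -1.69, this one from a probe set near background ending in _x_at; the mean of all 3 gave -0.84 (adjusted p = 0.000387). Whether PHGDH differs from PSAT1 and PSPH was not tested.

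The 1-carbon enzymes downstream of serine did not pass. MTHFD2, a mitochondrial folate dehydrogenase, gave 0.18 (95% interval 0.02 to 0.33, adjusted p = 0.0813) and SHMT2, the mitochondrial serine hydroxymethyltransferase, 0.08 (-0.08 to 0.25). SHMT1, its cytosolic form, read near background at 3.84 on the probe set of its own, while the brighter probe sets that also name the microRNA MIR6778 gave 0.12 and -0.00333.

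Arginine synthesis split at its 2 enzymes. ASS1, argininosuccinate synthase, had the largest change of all 52 genes. It read 9.83, 9.66 and 9.66 in transfected and 12.11, 12.01 and 12.57 in wild type arrays, a 5.71-fold fall (log2 change -2.51, SE 0.15, limma adjusted p = 2.58e-05). The transfected arrays were tight, and wild type replicate 3 was the highest of all. ASS1 has 1 probe set, ending in _s_at, and ASS1 is known for many processed pseudogenes that could share its probes. ASL, which cleaves the product of ASS1 to arginine, rose: 9.73, 9.71 and 9.68 in transfected against 9.22, 9.30 and 9.29 in wild type arrays (log2 change 0.44, adjusted p = 0.00159). In the cysteine pathway, CTH gave 0.63 (adjusted p = 0.0565, and 0.00824 with the replicate block) at a level near 4.95, and CBS, the step before it, 0.29 (adjusted p = 0.244).

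The 11 measured cytosolic tRNA synthetases kept within a narrow range: 3 rose, 0 fell and 8 did not pass in limma, and at an unadjusted p under 0.05 the counts were 3 and 2. Their called share was 27.3%, under the 31.9% of all genes and the 45.7% of genes at or above the median of all values. EPRS1, which charges glutamate and proline tRNAs, read 11.06, 11.19 and 11 in transfected and 10.45, 10.56 and 10.68 in wild type arrays, a rise of 0.52 (SE 0.09, adjusted p = 0.00331). Its other probe sets rose by 0.49 and 0.46. TARS1, the threonine enzyme, rose by 0.27 (adjusted p = 0.0124), and by 0.51 (adjusted p = 0.00115) as the mean with its dimmer second probe set. Of its 20 nearest measured genes, 7 were higher as well and 1 lower. GARS1, the glycine enzyme, rose by 0.29 (limma adjusted p = 0.0471 over genes), but its only probe set did not pass over all probe sets (adjusted p = 0.0693). The call ended under quantile normalization (0.0522) and with arrays centred on their medians (0.0552). It also ended when any 1 array other than wild type replicate 3 was left out (0.0716 to 0.148).

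The 2 lower synthetases at an unadjusted p under 0.05 were CARS1 and NARS1, the cysteine and asparagine enzymes, at -0.30 (adjusted p = 0.0646) and -0.19 (adjusted p = 0.0896). CARS1 passed with the replicate block (adjusted p = 0.024). WARS1, the tryptophan enzyme, gave 0.20 and SARS1, the serine enzyme, -0.15. AARS1, IARS1, LARS1 and YARS1, for alanine, isoleucine, leucine and tyrosine, lay between -0.08 and 0.01, and the 95% interval of IARS1 ran from -0.18 to 0.12. The probe sets shared by MARS1 and MIR6758 gave -0.02, 0.06 and 0.07.

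Over all 127 probe sets, 27 were higher and 18 lower, which is 35.4%, against 22.2% of all probe sets tested. These shares are not like for like. Of all probe sets 11721 name no gene, and some members, such as GLUL and BCAT1, have several called probe sets. Counted by gene at or above the median of all values, 40.4% of members and 45.7% of all genes were called. No member had probe sets called in opposite directions. For 5 members a dimmer probe set passed where the brightest did not: LARS1 (0.50), MTHFD2 (0.50), CTH (0.52), CARS1 (-0.43) and SLC7A6 (-0.46).

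**Figure D4:**
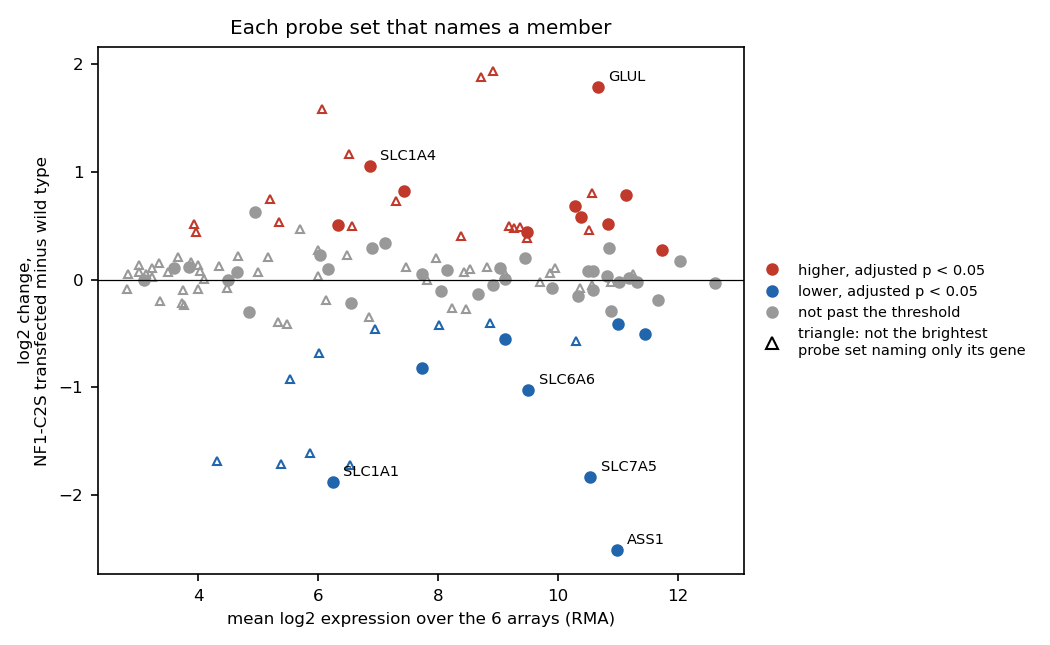
Log2 change (NF1-C2S transfected minus wild type, vertical axis) against the mean log2 expression over the 6 arrays (horizontal axis) for all 127 probe sets; circles are the brightest probe set naming only its gene and triangles the others. SLC7A5 and ASS1 each have a single point, while the GLUL and SLC6A6 changes are repeated by further probe sets.

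A list of regulators of the amino acid response and genes related to it, called regulators here for short, had 25 measured genes. Among these there were 11 rises and 3 falls, and 11 missed the threshold, with a median of 0.27. The called share was 56%, beside 31.9% of all genes and 45.7% of genes at or above the median of all values, and 8 were called when probe sets ending in _x_at or _s_at were dropped. ATF4 itself gave -0.04 (adjusted p = 0.809), at 11.41, 11.28 and 11.41 in transfected and 11.34, 11.30 and 11.59 in wild type arrays. EIF2AK4, which encodes GCN2, rose by 0.55 (limma adjusted p = 0.000528). Of the other eIF2alpha kinases, EIF2AK3 rose by 0.85 (limma adjusted p = 0.000119) and EIF2AK2 by 0.27 (adjusted p = 0.0216). EIF2AK1 gave 0.09 and did not pass. EIF2S1, which encodes eIF2alpha, fell, with a log2 change of -0.23 (limma adjusted p = 0.0379). DDIT4, an inhibitor of mTORC1, rose by 2.04 (adjusted p = 0.00226), STC2, a secreted glycoprotein, by 1.14 and ATF3, a stress-induced transcription factor, by 1.09. The stress protein NUPR1 fell by 1.37. Single arrays stood out in this list: ATF3 read 9.77 in transfected replicate 3 against 9.01 and 9.09 in the other transfected arrays, and DDIT4 read 8.59 in wild type replicate 3 against 7.35 and 7.36 in the other wild type arrays. That these regulators and the members differ in their share of calls was not tested.

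In the mTORC1 and lysosomal sensing list, 4 of 25 measured genes rose and 5 fell (median 0.06). That share, 36%, is near the 31.9% of all genes and under the 45.7% of genes at or above the median of all values. All measured genes of the list but SESN3, at 4.16, lay above that median. The count was 3 when probe sets ending in _x_at or _s_at were dropped. RHEB, the activator of mTORC1, rose by 0.50 and LAMTOR4, a subunit of the Ragulator complex, by 0.73. NPRL2, a subunit of the complex that restrains mTORC1 when amino acids are low, fell by 0.78, and the small GTPase RRAGA fell by 0.50.

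The synthetases outside the 54 genes were lower where they were called. Among 7 measured cytosolic ones and scaffold proteins 4 fell and 0 rose in limma (4 and 0 at an unadjusted p under 0.05). Both subunits of the phenylalanine enzyme fell, FARSB by 1.15 (adjusted p = 9.39e-05) and FARSA by 0.83 (adjusted p = 0.000201), and so did the arginine enzyme RARS1 by 0.54 and the valine enzyme VARS1 by 0.36. Of 15 measured mitochondrial synthetases 7 fell and 0 rose in limma (7 and 2 at an unadjusted p under 0.05). They included LARS2 (-1.10), MARS2 (-0.92), EARS2 (-0.82) and FARS2 (-0.65). Without wild type replicate 2 the mitochondrial count was 4. The called shares were 57.1% for the cytosolic and 46.7% for the mitochondrial list, beside 31.9% of all genes. Every measured gene of both lists lay above the median of all values, and of all genes at or above it 45.7% were called.

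Further carriers and enzymes gave the rest of the picture. Of 23 other carriers 4 fell and 0 rose in limma (4 and 1 at an unadjusted p under 0.05). The count was 2 without wild type replicate 1 or 2, as it was when probe sets ending in _x_at or _s_at were dropped. The called share was 17.4%, under the 31.9% of all genes. Many of these carriers lay below the median of all values, such as SLC7A13 at 2.895 and SLC38A4 at 3.04. Of genes at or above that median 45.7% were called. Whether the share of these carriers differs from that of genes at like levels was not tested. SLC7A11, the cystine and glutamate exchanger, fell by 1.10 (adjusted p = 0.000176), SLC38A10 by 0.68, and SLC16A10 and SLC7A10, both dim, by 0.33 and 0.30. Among 19 other amino acid and 1-carbon enzymes 2 rose and 7 fell, and 5 were called without those probe sets. The 2 rises and 7 falls make 47.4%, near the 45.7% of genes at or above the median of all values, and beside 31.9% of all genes. ARG2, the mitochondrial arginase, read 6.85, 7.05 and 7.17 in transfected and 4.71, 4.79 and 4.99 in wild type arrays, a rise of 2.19 (adjusted p = 1.38e-05), with the wild type arrays near the median of all values. MTHFD2L, a relative of MTHFD2, fell by 1.89 (adjusted p = 4.62e-06), GCSH, a subunit of the glycine cleavage system, by 0.91 and the glutamate dehydrogenase GLUD1 by 0.35.

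**Figure D5:**
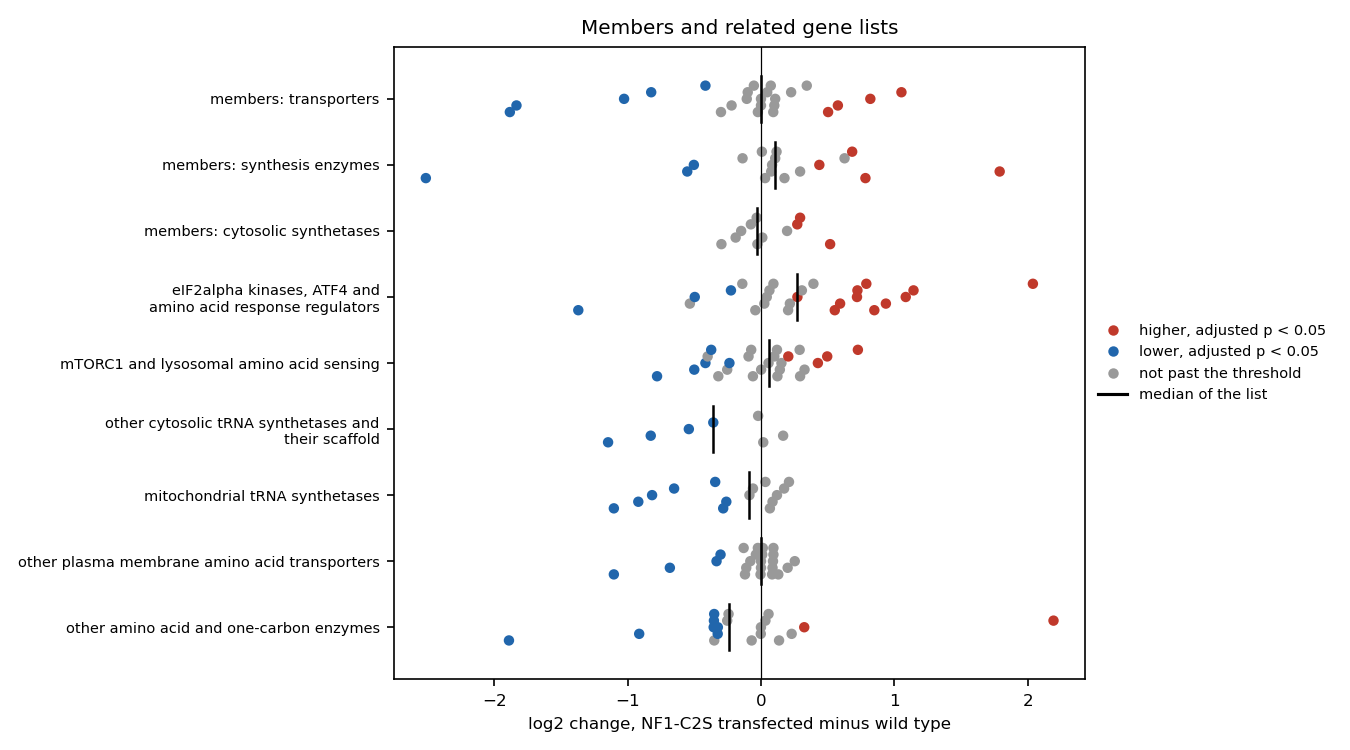
Log2 change (NF1-C2S transfected minus wild type, horizontal axis) of each measured gene in the 3 role groups of the members and in 6 related lists, coloured by call, with a black bar at the median of each list. The regulator list has its median at 0.27, and the called synthetases outside the members all lie left of 0.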

How the data were processed

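The deposited table holds log2 expression, 54675 probe sets by 6 arrays, made with RMA per the submitters' processing notes; the sources used here name neither its version nor which arrays entered 1 normalization. Array medians ran from 4.80 to 4.86. RMA compresses differences at the dim end. Arrays have no read depth, and their number limits the precision. The 62 control probe sets were left out. Genes were named through the platform annotation, updated by gene identifier to GRCh38.p14 symbols (41037 of 41091 single-gene probe sets matched; 1801 name several genes and 11721 none). A gene is represented by its brightest probe set that names no other gene. Groups were compared with limma 3.58.1 in R 4.3.3, two-sided, Benjamini-Hochberg adjusted over all 19775 genes (or all 54613 probe sets for single probe sets), and the fit was tested on simulated data. Nothing in the labels makes replicates separate cultures, so the p-values reflect only differences among these arrays, possibly technical ones.

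The members, role groups, related lists and element core were chosen with earlier results of these data known. Every member is named; array values are given for called members with a change of at least 0.5 and no overlap (for some others too), and the 4 largest called changes of each related list are named. ATF4, the eIF2alpha kinases, EIF2S1, ESR1 and the line's called markers are named outside that rule, after their values were seen. Arrays with the same replicate number in the labels deviated together from their group means (correlations 0.398, 0.238 and 0.140 for numbers 1, 2 and 3), although wild type replicate 2 with transfected replicate 3 gave 0.142, so a fit with the replicate block was run beside the unblocked one. Neighbours are the 10 measured genes on each side along the chromosome. The other alternatives were quantile normalization, median centring, a trended robust variance prior, the mean of probe sets, no probe sets ending in _x_at or _s_at, no dim genes, and leaving out each array.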

Additional observations from a re-analysis of the deposited data

How the results depend on the processing

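With the replicate block the pairing changed 2 member calls, those of CTH and CARS1, which were gained; it changed no other member call. No member changed direction while called under any of the 13 alternatives. The count of members called was 18 to 21 when 1 array was left out (10 to 13 higher, 8 to 9 lower), and that of all genes 5269 to 6060. When the probe sets ending in _x_at or _s_at were dropped, 39 members could be measured and 12 were called, 7 higher and 5 lower; SLC1A4 and ASNS lost their calls on dim probe sets (log2 changes 0.16 and 0.05, adjusted p = 0.551 and 0.734), and SLC7A5, ASS1, PSAT1, EPRS1 and GARS1 have no probe set without these endings. GLUL kept its call there at 0.44 in place of 1.79 (adjusted p = 0.00449). The same setting gave 8 called amino acid response regulators in place of 14, 3 mTORC1 genes in place of 9, 2 other carriers in place of 4 and 5 other enzymes in place of 9, for which fewer genes measured is part of the construction. Leaving out 1 array gave 11 to 13 called regulators, 6 to 8 mTORC1 genes, 4 other cytosolic synthetases, 4 to 7 mitochondrial synthetases, 2 to 5 other carriers and 8 to 9 other enzymes. GARS1 is the member call that rests most on single arrays.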

Other observations

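Some members near the threshold were called only under some settings, of which these are examples. MTHFD2 and NARS1 passed with the trended variance prior (adjusted p = 0.00277 and 0.00773), NARS1 also when only genes at or above the median of all values were tested (0.0483), SLC43A1 with quantile normalization (0.0222), and SLC7A2 with median centring (0.043). Without wild type replicate 3, CBS (log2 change 0.48, adjusted p = 0.0151) and WARS1 (0.28, adjusted p = 0.0332) passed, and without wild type replicate 2 SLC6A9 did (-0.54, adjusted p = 0.0102).

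Chromosomal neighbours of the other strongly changed members moved less than those of SLC6A6 and ASNS. The medians of the 20 nearest measured genes were -0.17 for ASS1, -0.08 for SLC7A5, 0.03 for SLC1A4 and -0.04 for BCAT1. Among these neighbours 6 fell and 1 rose for ASS1, and 6 fell and 2 rose for SLC7A5. For SLC1A4 0 fell and 4 rose, and for BCAT1 4 fell and 2 rose. Over all genes 16.9% were lower and 15% higher.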
